A study of Mus musculus with 4 samples.

Results

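The genes described here carry glucose through glycolysis to lactate: the glucose transporter Slc2a1, the enzymes Hk2, Pfkp, Tpi1, Gapdh, Pgk1, Eno1 and Pkm, and the lactate dehydrogenase subunits Ldha and Ldhb. They were taken by symbol, 10 of 32245 gene symbols in the count matrices, and all 10 were detected. RNA of single cells was counted in maxillary gingiva of mice in 4 libraries, which the labels call healthy, metformin treatment, disease, and disease treated with metformin, with 1 library in each. The series concerns the use of metformin against periodontal disease, so each library with metformin was set against the one without it, and each diseased library against the one without disease. How many mice each library pooled, their strain, sex and age, how disease was induced, and the dose, route and length of treatment are not given in the sources used here.

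Glycolysis splits glucose into pyruvate and gains ATP without oxygen, and lactate dehydrogenase turns pyruvate into lactate while it restores the NAD+ that the Gapdh step needs. The lactate dehydrogenase tetramer is built from A subunits (Ldha), which predominate in tissues that make lactate, and B subunits (Ldhb), which predominate in tissues that oxidise it. Stratified epithelia are poorly supplied with vessels and known for active glycolysis, and metformin is known to inhibit respiratory complex I and to activate the AMP-activated kinase. Hypoxia-inducible factor is a known activator of several of these genes and binds a core of the letters ACGTG.

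The lactate dehydrogenase genes gave the widest contrast between libraries, and their promoters are shown because the pair differs in them. Both windows come from RefSeq on GRCm38.p6, run from 250 bases before to 50 bases after an annotated start, and are written 5′ to 3′ on the gene's strand, with ACGTG or its reverse complement in capitals.
Ldha, chr7:46845554-46845853, plus strand: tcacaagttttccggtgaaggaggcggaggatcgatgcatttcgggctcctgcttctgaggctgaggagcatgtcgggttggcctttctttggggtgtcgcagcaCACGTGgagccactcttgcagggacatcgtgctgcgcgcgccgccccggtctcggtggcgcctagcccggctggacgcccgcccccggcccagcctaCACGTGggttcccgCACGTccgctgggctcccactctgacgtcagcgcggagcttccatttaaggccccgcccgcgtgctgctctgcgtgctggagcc
Ldhb, chr6:142507908-142508207, minus strand: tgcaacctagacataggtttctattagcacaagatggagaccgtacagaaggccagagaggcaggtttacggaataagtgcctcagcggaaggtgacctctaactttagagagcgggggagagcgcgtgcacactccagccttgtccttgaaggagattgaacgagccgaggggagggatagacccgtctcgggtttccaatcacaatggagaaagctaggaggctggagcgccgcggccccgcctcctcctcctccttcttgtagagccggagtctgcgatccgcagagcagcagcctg
Counted on both strands, ACGTG occurred 5 times in this Ldha window, 2 pairs of which overlap because CACGTG reads the same on either strand, and nowhere in the Ldhb window. Over all genes with a promoter in that table, 21.8% held ACGTG in at least 1 window, as did 6 of these 10 genes. CACGTG was found in 8.09% of genes and, among the 10, in Ldha alone. Ldha has a further annotated start whose window held no match. A match is a string of letters and no measurement of binding. On GRCm38 the protein-coding gene Ldha lies at chr7:46841475-46855627 on the plus strand and Ldhb at chr6:142490249-142507957 on the minus strand.

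The libraries held 1307 to 2477 cells after filtering, 7134 in all, with medians of 1715 to 1951 unique molecular identifiers (UMIs) per cell. Of all barcodes 8 occurred in 2 libraries, and leaving them out moved none of the values given here beyond their counting error. Cells were grouped into 26 clusters without use of any gene of these pathways, and named from marker genes: keratinocyte-like cells numbered 691, 1205, 1081 and 697 in the healthy, metformin, disease and disease-metformin libraries, gland-like cells 339, 285, 234 and 511, and endothelial-like cells 43, 61, 109 and 32. The gland-like cells carry markers of salivary-type glands, and 5 clusters of them are named by leading genes. Levels are UMIs of a gene per 1000000 UMIs (CPM), with each class pooled within its library, so deep cells weigh most. The Trp63 keratinocyte cluster held 10.2% of the keratinocyte-like cells and 67.8% of their UMIs. With 1 library per condition there is no replicate check and no p-value: "called" means a ratio of at least 1.5-fold whose 95% interval excludes 1, an interval of counting error only, for genes with at least 20 UMIs over the 2 libraries. Mouse-to-mouse spread and the condition cannot be told apart.

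Summed over the 4 libraries, the 10 genes made up 2848 CPM of keratinocyte-like cells, 1416 CPM of endothelial-like cells and 1169 CPM of gland-like cells. The classes used them in different proportions, as the plot of levels by class shows. Gapdh, which oxidises glyceraldehyde phosphate, stood at 1112 CPM in keratinocyte-like, 551 in endothelial-like and 274 in gland-like cells. Pkm, the pyruvate kinase of the last ATP-yielding step, stood at 576, 209 and 85.3 CPM in the same order. Hk2, a hexokinase that traps glucose in the cell, was highest in gland-like cells, at 237 CPM, against 17.2 CPM in keratinocyte-like and 3.05 CPM in endothelial-like cells. Tpi1, which interconverts the triose phosphates, stood at 296 CPM in gland-like and 273 CPM in keratinocyte-like cells, while endothelial-like cells held 149 CPM.

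**Figure D1:**
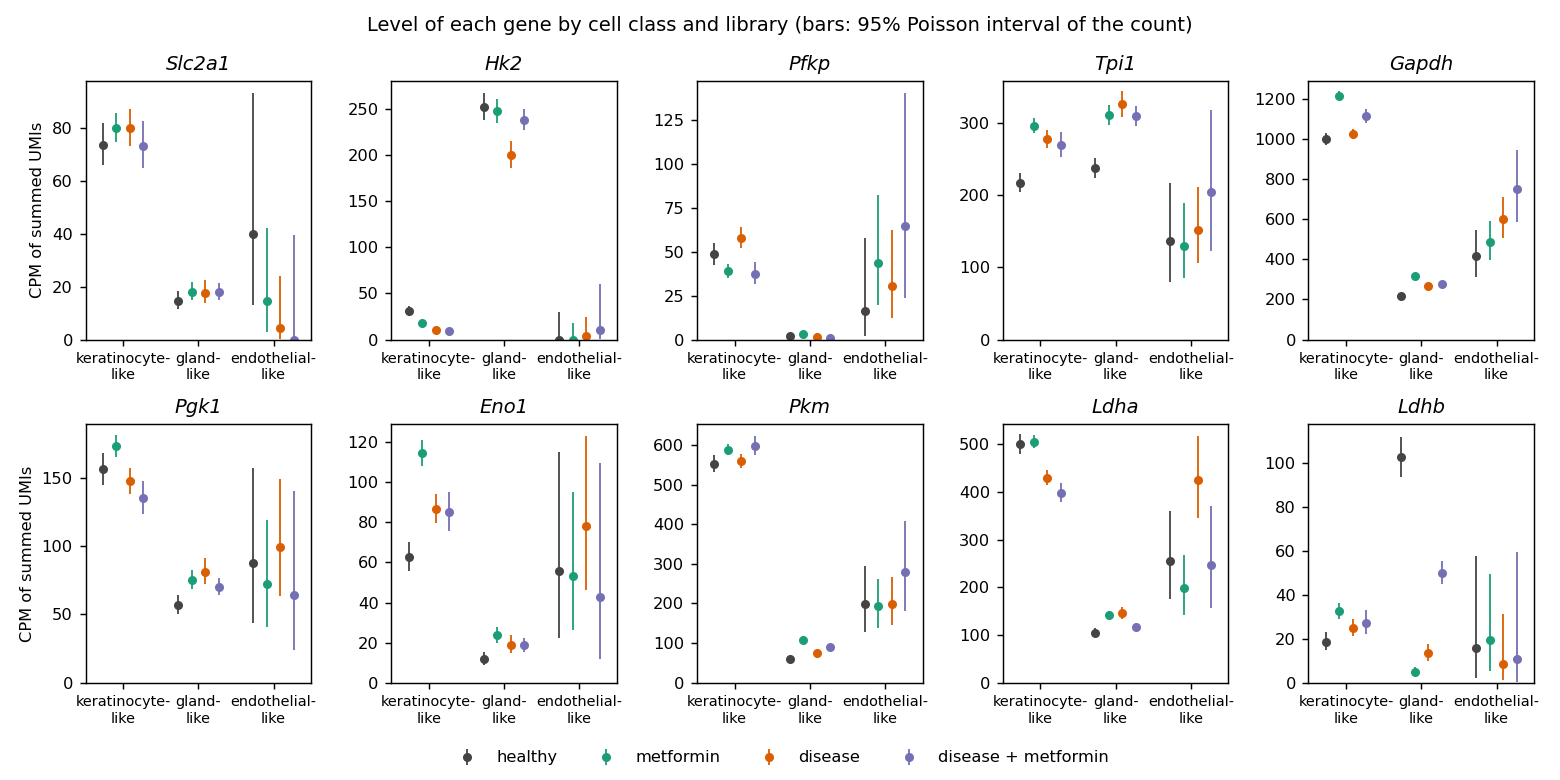
Level of each of the 10 genes in CPM in keratinocyte-like, gland-like and endothelial-like cells, 1 point per library with its 95% counting interval. Hk2 is highest in gland-like cells in all 4 libraries, Pfkp lowest there, and Ldhb spreads from 5.12 to 103 CPM between the gland-like cells of different libraries.

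Glucose entry was read from Slc2a1, the widespread facilitative transporter GLUT1. In keratinocyte-like cells it stood at 73.6 CPM in the healthy library, 80.2 with metformin, 80.0 in disease and 73.3 in disease with metformin. These values lay close together, and the class total hid a contrast between layers. In basal-like keratinocytes, the layer of Krt14, Krt15 and Cxcl14, Slc2a1 stood at 76.0, 109.6, 65.7 and 86.9 CPM in the same order. In keratinized suprabasal-like keratinocytes, the layer of Krt76 and Krt10, it stood at 32.2, 69.5, 35.6 and 79.0 CPM, from 10, 99, 14 and 38 UMIs. In both of these layers the 2 metformin libraries were higher than the 2 libraries without it, although no Slc2a1 ratio was called in the basal-like cells. S-phase-like keratinocytes did not show this, at 77.8, 78.9, 47.1 and 20.1 CPM, with the disease-metformin library lowest on 4 UMIs. Nor did the Trp63 cluster, at 73.2 to 87.8 CPM over the libraries, highest in the disease library. In the Krt4 and Krt13 cluster described below, Slc2a1 ranged from 27.2 to 41.3 CPM, again highest in the disease library. Gland-like cells held 14.6 to 18.1 CPM. Endothelial-like cells gave 5, 3, 1 and 0 UMIs of Slc2a1, so its level there was not measurable at this depth. The highest pooled level, 187 CPM, was in a cluster of 71 cells led by Odam, a gene of the junctional epithelium at the tooth surface. Of its 4 libraries only 2 had 20 cells or more, where Slc2a1 stood at 127 and 133 CPM. That cluster stood apart from the basal-like keratinocytes (90.4 CPM pooled), whose range over libraries overlapped with the next in order. Next were the mitotic-like keratinocytes (87.6 CPM pooled), which reached 135 CPM in a library and so overlapped with the Odam cluster too.

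Hk2 was highest in clusters of the gland. In all gland-like cells it stood at 252, 247, 200.2 and 238 CPM in the healthy, metformin, disease and disease-metformin libraries, a narrow range. Its highest cluster, the Ptprn2 gland cluster, held 390.5, 389, 265 and 373 CPM, above every library of the Wfdc12 gland cluster (239, 228, 184 and 214 CPM). Of all UMIs of the hexokinase genes Hk1, Hk2 and Hk3, Hk2 supplied 93.9% in gland-like cells, 30.6% in keratinocyte-like cells and 5.41% in endothelial-like cells (2 of 37 UMIs). The Odam cluster resembled the gland in this share, with 51 of 56 UMIs (91.1%). The small Sbpl and Bpifb1 gland cluster held 124, 245 and 256 CPM of Hk2 in the healthy, metformin and disease-metformin libraries, lowest in the healthy one, on 22 to 41 cells. In basal-like keratinocytes Hk2 was nearly absent, at 0, 4, 2 and 2 UMIs.

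Pfkp, the platelet-type phosphofructokinase of the main regulated step of glycolysis, had the opposite distribution. In keratinocyte-like cells it stood at 48.4, 38.8, 57.7 and 37.5 CPM, whereas gland-like cells held 10, 18, 6 and 6 UMIs of it, 0.887 to 3.07 CPM. No UMI of Pfkp was found in the Muc5b gland cluster of any library. Within keratinocytes its level was highest in the Trp63 cluster (59.4, 53.2, 72.3 and 51.1 CPM) and lower in basal-like cells (22.5, 12.7, 8.01 and 18.4 CPM). Pfkp supplied 61.1% of the UMIs of Pfkp, Pfkl and Pfkm in keratinocyte-like cells, 53.3% in endothelial-like cells (24 of 45) and 14.1% in gland-like cells (40 of 283).

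The middle enzymes differed between keratinocyte layers and clusters. Tpi1 and Gapdh had their highest pooled levels in mitotic-like and S-phase-like keratinocytes. Gapdh reached 1776, 1933, 1824 and 1591 CPM in S-phase-like keratinocytes, against 883, 1007, 912 and 963 CPM in the Trp63 cluster. These ranges did not overlap, but basal-like keratinocytes reached 1620 CPM of Gapdh in a library and so overlapped with the S-phase-like cells. The S-phase-like and Trp63 barcodes also differed in RNA makeup. Pooled, they held 346 and 13822 CPM of Malat1, and 0.071% and 4.24% mitochondrial UMIs. The part of this makeup in any level set against the Trp63 cluster was not tested. Tpi1 stood at 441, 493, 504 and 443 CPM in the S-phase-like cells and 171, 207, 242 and 215 CPM in the Trp63 cluster. It reached 492 CPM in the Krt4 and Krt13 cluster described next and 484 CPM in the Tff2 gland cluster, both within the S-phase-like range. Pgk1, which makes the earlier ATP of the pathway, had its highest pooled level in a cluster led by Krt4 and Krt13, keratins of soft mucosa, at 286, 305, 186 and 145 CPM. Those libraries overlapped with the Odam cluster, next in order. Eno1, an enolase, also had its highest pooled level in the Krt4 and Krt13 cluster, at 154, 166, 145 and 118 CPM over the libraries. In single libraries the Odam cluster reached 325 CPM of Eno1 and the keratinized suprabasal-like layer 173 CPM. Eno1 has a near-identical copy, Eno1b, and how reads were assigned between them was not tested, so every Eno1 value here is uncertain to that extent. Eno1b gave 23, 57, 29 and 25 UMIs in keratinocyte-like cells and 4, 7, 3 and 2 in gland-like cells.

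**Figure D2:**
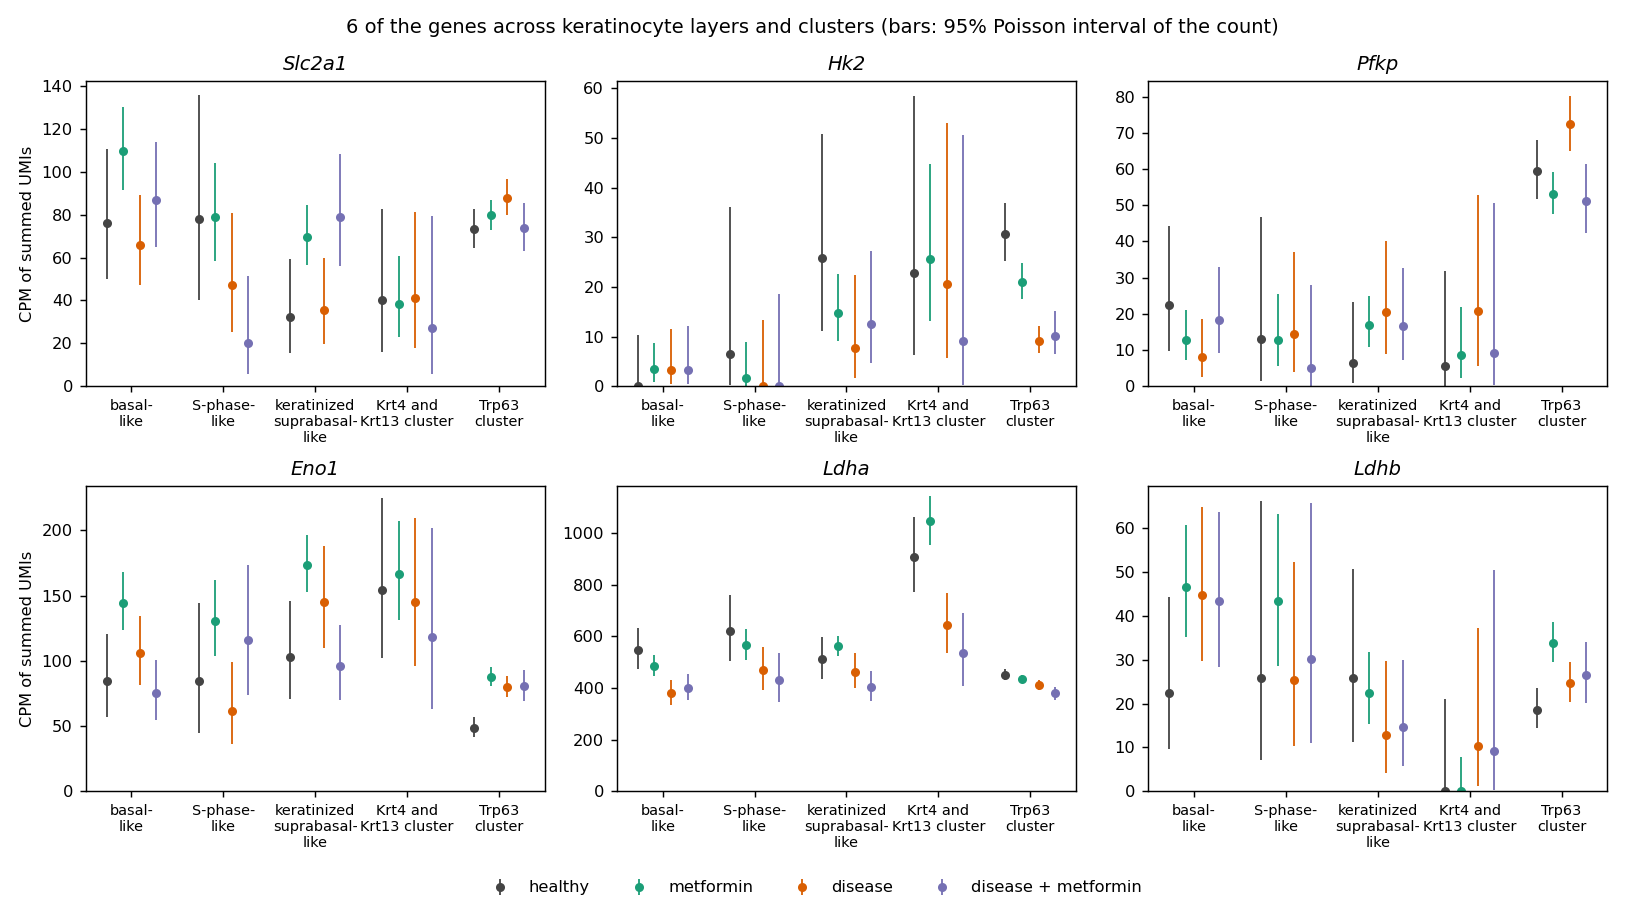
Levels of Slc2a1, Hk2, Pfkp, Eno1, Ldha and Ldhb in CPM in 5 keratinocyte layers or clusters, 1 point per library with its 95% counting interval. Slc2a1 in the keratinized suprabasal-like layer separates both metformin libraries (69.5 and 79.0 CPM) from the others (32.2 and 35.6 CPM). Among these 5, Ldha peaks in the Krt4 and Krt13 cluster.

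Ldha, the A subunit, was higher in keratinocyte-like than in gland-like cells in every library. Its highest pooled level was in the Odam cluster, at 1071 CPM, with a range over libraries that overlapped with the Krt4 and Krt13 cluster. Keratinocyte-like cells held 500.5, 506, 429.9 and 398 CPM in the healthy, metformin, disease and disease-metformin libraries. Both libraries without disease were higher than both diseased ones, by less than 1.5-fold: the log2 ratio was −0.22 (−0.30 to −0.14) for disease against healthy and −0.34 (−0.43 to −0.26) for disease-metformin against metformin. The same separation of Ldha was found in each of the 5 plotted layers and clusters. In the Krt4 and Krt13 cluster it reached 909, 1047, 646 and 535 CPM, its widest gap between libraries without and with disease among those 5. Ldhb was close to absent in that cluster, at 0, 0, 2 and 1 UMIs, so Ldhb supplied 0.358% of its lactate dehydrogenase UMIs (3 of 837). In all keratinocyte-like cells the Ldhb share was 5.47% (681 of 12443), and in endothelial-like cells 4.43% (9 of 203). Outside the epithelium, Ldhb supplied 42.9% of these UMIs in pericyte and smooth muscle-like cells (60 of 140). Its highest level was in Schwann-like cells, but 1 barcode gave 80.6% of the Ldhb UMIs that the healthy library had there, and only 2 libraries held 20 such cells, at 182 and 336 CPM.

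Of all ratios between libraries measured for these genes in the 3 classes, the largest was that of Ldhb in gland-like cells. It stood at 103 CPM in the healthy library (500 UMIs), 5.12 CPM with metformin (30 UMIs), 13.4 CPM in disease (50 UMIs) and 50.1 CPM in disease with metformin (339 UMIs). The healthy library was highest, the disease-metformin library intermediate, and the remaining pair low. No barcode gave over 6.67% of a library's Ldhb UMIs in this class. As a share of lactate dehydrogenase UMIs, Ldhb made up 49.6% in the healthy library (500 of 1008, exact Clopper-Pearson interval 46.5 to 52.7%), 3.50% with metformin (30 of 858, 2.37 to 4.95%), 8.39% in disease (50 of 596, 6.29 to 10.9%) and 30.1% in disease with metformin (339 of 1126, 27.4 to 32.9%). None of these 4 intervals overlapped. Ldha in the same cells lay within a narrower range, at 105, 141, 146 and 116 CPM.

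The order held in each gland cluster. In the Wfdc12 cluster Ldhb stood at 135, 3.93, 13.03 and 56.2 CPM. In the Ptprn2 cluster it stood at 72.1, 6.03, 15.4 and 22.9 CPM. In the Sbpl and Bpifb1 cluster, which had no cell in the disease library, it stood at 58.9, 7.92 and 32.4 CPM in the healthy, metformin and disease-metformin libraries. The smaller Muc5b and Tff2 clusters gave 7, 0, 1, 8 and 8, 0, 0, 5 UMIs. Ldhb was thus highest in the healthy library in 5 of 5 gland clusters and next in the disease-metformin library in 5 of 5. It was lowest, or tied at 0, in the metformin library in 5 of 5. The clusters come from the same libraries and are no replicates of one another, and the Sbpl and Bpifb1 cluster was ranked without the disease library. The Ldhb share in the Wfdc12 cluster ran 52.4%, 2.65%, 7.25% and 31.1% over the libraries, and in the Ptprn2 cluster 48.2%, 4.71%, 14.4% and 22.1%.

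**Figure D3:**
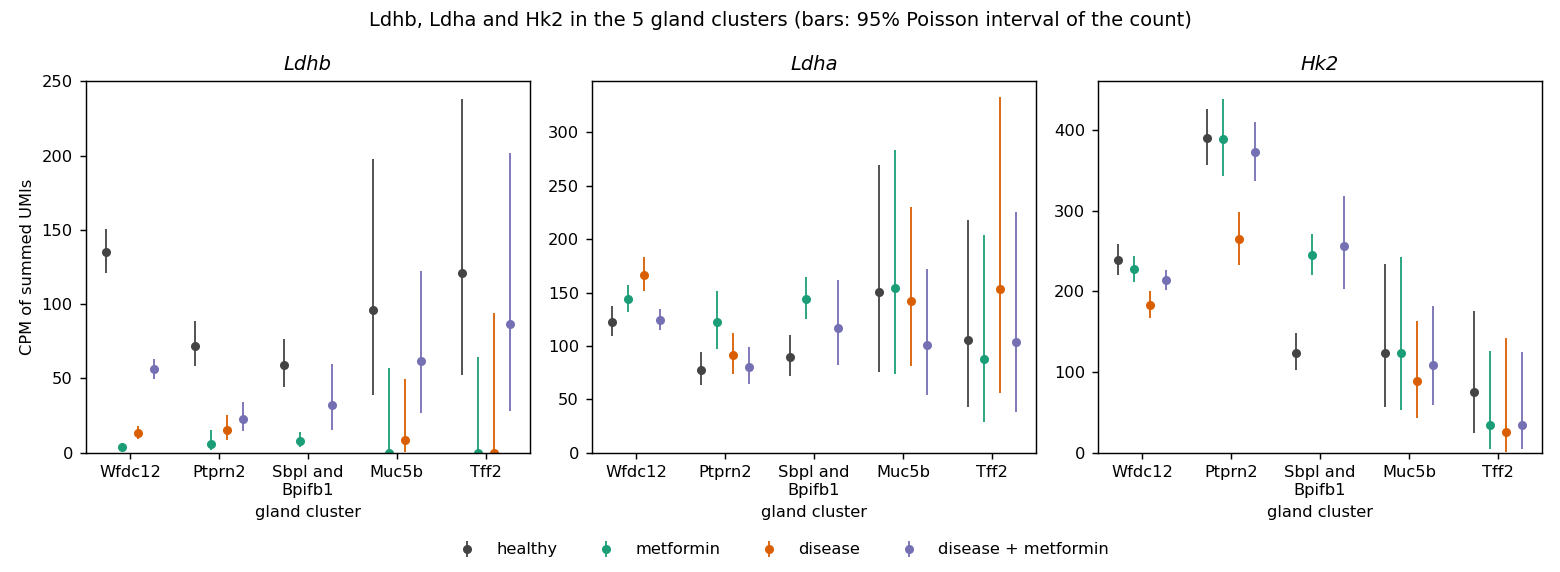
Levels of Ldhb, Ldha and Hk2 in CPM in 5 gland clusters, 1 point per library with its 95% counting interval. Ldhb is highest in the healthy library and next in the disease-metformin library in each cluster, whereas the points of Ldha and Hk2 lie closer together.

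**Figure D4:**
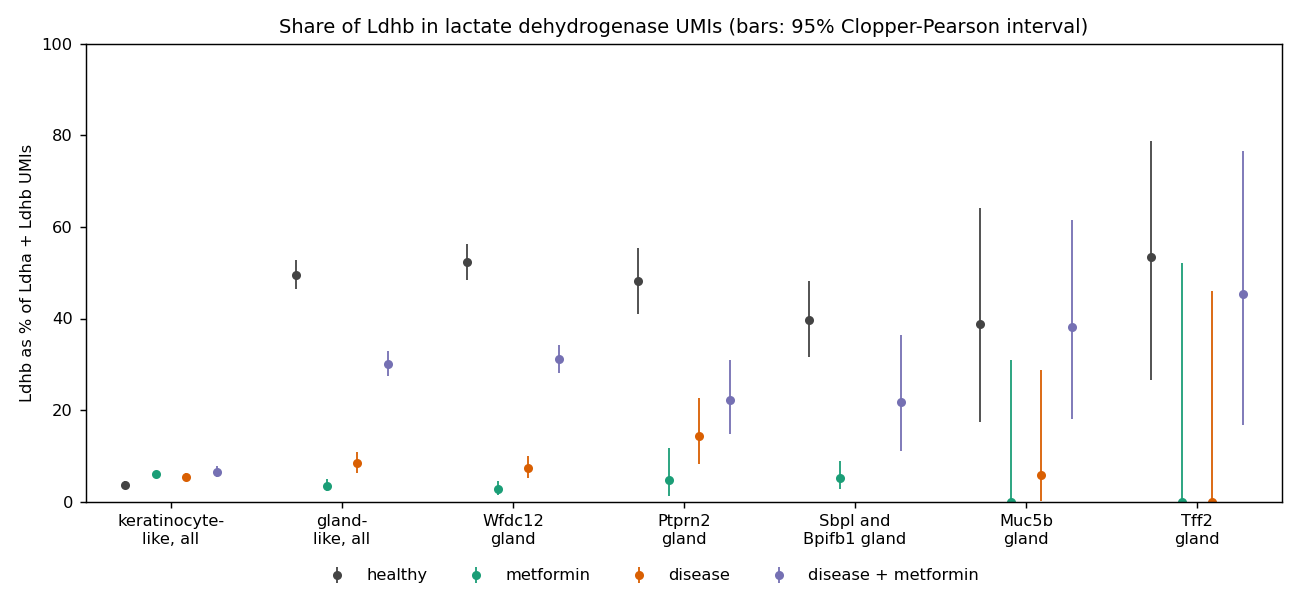
Ldhb as a percentage of Ldha plus Ldhb UMIs in all keratinocyte-like cells, all gland-like cells and 5 gland clusters, 1 point per library with its exact 95% interval. Gland-like cells run from 3.50% to 49.6%, while keratinocyte-like cells stay between 3.59% and 6.44%.

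Marker lists of other cells were read in the same gland-like cells. Schwann markers summed to 96.5, 113, 103 and 119 CPM in the 4 libraries. Erythroid markers summed to 251, 352, 65.3 and 38.3 CPM, highest in the metformin library, where Ldhb was lowest. In the Wfdc12 cluster alone they summed to 443, 44.6, 30.7 and 29.5 CPM, highest in the healthy library like Ldhb. Erythroid-like cells themselves held at most 8.11 CPM of Ldhb. The unnamed Ltf and Acta2 cluster held 79.4 CPM of it, pooled. Markers of pericyte and smooth muscle-like cells, which also express Ldhb, were not summed here. The part of other cells in the Ldhb values was not tested. Keratinocyte markers in gland-like cells summed to 259, 1274, 234 and 480 CPM, highest with metformin. Fewer cells that make Ldhb and less of its RNA per cell cannot be told apart in a sum.

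Metformin without disease was compared in the metformin and healthy libraries. In gland-like cells 3 of 10 genes were called, where 15.3% of all 11041 measured genes were. Ldhb was 20.1-fold lower with metformin (log2 ratio −4.33, 95% interval −4.91 to −3.80). Counted from the lower end of all 11041 log2 ratios, that was rank 4. Eno1 was higher by 1.02 (0.56 to 1.49) on the log2 scale, from 11.7 and 23.7 CPM, and Pkm by 0.87 (0.67 to 1.07), from 59.7 and 109 CPM. The median log2 ratio of the 10 was 0.42, against 0.18 for all genes. The keratinocyte markers given above were also higher in this library's gland-like cells, and their part in the Eno1 and Pkm values was not tested. Salivary gland markers took 275089.9 CPM of the healthy library's gland-like cells and 194442 CPM of the metformin library's, and with a total that left out gland products Eno1 and Pkm were still called. The Pkm call ended with every cell weighted equally, at 0.36. With every cell weighted equally, the Eno1 ratio turned to −0.18.

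By cluster, Ldhb had a log2 ratio of −5.10 (−5.99 to −4.34) in the Wfdc12 cluster, rank 1 from the lower end of 9853 genes. Eno1 (1.04, 0.43 to 1.69) and Pkm (0.59, 0.34 to 0.86) were called higher there too, 3 of 9 measured genes, where 10.3% of all genes were called. The Pkm call in this cluster held in 7 of 11 alternatives and ended, among others, with the total that left out gland products. In the Ptprn2 cluster 6 of 9 measured genes were called, where 12.9% of all genes were. Ldhb was lower there (−3.58, −5.49 to −2.18), and Gapdh (1.01), Pgk1 (0.75), Eno1 (1.36), Pkm (1.20) and Ldha (0.65) were higher with metformin. Keratinocyte markers summed to 277 CPM in the healthy library's Ptprn2 cluster and to 3722 CPM in the metformin library's. In the Wfdc12 cluster they summed to 251 and 317 CPM. The part of keratinocyte RNA in the ratios of the Ptprn2 cluster was not tested. The metformin library's Ptprn2 cluster held 65 cells, and Eno1 rested on 12 and 16 UMIs, with a ratio of −0.11 when every cell was weighted equally and no call without its top barcode. Ldha was called in 8 of 11 alternatives, with a ratio down to 0.09, and Pgk1 in 7 of 10.

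In keratinocyte-like cells 3 of 10 genes were called between the metformin and healthy libraries, where 20.7% of 12051 genes were. Eno1 was higher with metformin by 0.87 (0.69 to 1.06) on the log2 scale, from 62.5 and 114 CPM. Ldhb was higher by 0.80 (0.46 to 1.16), from 18.6 and 32.5 CPM, the reverse of its direction in gland-like cells. Hk2 was lower (−0.74, −1.07 to −0.42), from 30.4 and 18.2 CPM, but its ratio turned to 0.41 with every cell weighted equally. The median of the 10 was 0.14, against −0.21 for all genes, since many more genes were called lower than higher in this comparison. Ldha was alike in both libraries, with a log2 ratio of 0.01 (−0.06 to 0.09).

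Layer by layer, Eno1 was the gene called most widely, though not in S-phase-like keratinocytes or the Krt4 and Krt13 cluster. It was the 1 called of 9 measured in basal-like keratinocytes (0.77, 0.21 to 1.39), where 7.19% of all genes were called. That call held in 8 of 10 alternatives and ended with equal cell weights and with Malat1 and a mitochondrial UMI required. The basal-like cells came from 2 clusters, with 262 and 1 cells in the healthy library and 341 and 104 in the metformin library. In the Trp63 cluster Eno1 (0.84, 0.60 to 1.10) and Ldhb (0.86, 0.46 to 1.28) were called, 2 of 10, where 13% of all genes were. In the keratinized suprabasal-like layer Eno1 (0.75, 0.21 to 1.33) and Slc2a1 (1.11, 0.17 to 2.21) were called, 2 of 10, where 8.5% of all genes were. The Slc2a1 interval is wide because the healthy library gave 10 UMIs, and the ratio was called in 7 of 10 alternative treatments of the data, with values between 0.89 and 2.18. Eno1 in this layer was called in 6 of 10. Barcodes without any mitochondrial UMI made up 53.8%, 51.4%, 33.8% and 59.4% of the layer in the 4 libraries, and their part in these values was not tested.

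In endothelial-like cells 0 of 5 measured genes were called, where 17.2% of all 3040 were. The healthy library held 43 of these cells, under the 50 set as a minimum, and the values are given as those of few cells. Gapdh stood there at 415, 487, 602 and 751 CPM over the 4 libraries, Ldha at 256, 198, 425 and 247 CPM, and Pkm at 199.7, 193, 199 and 279 CPM. Hk2 gave 0, 0, 1 and 1 UMIs, and Ldhb 2, 4, 2 and 1. The Nrgn endothelial cluster, 109 cells of low depth, held no UMI of Slc2a1, Hk2 or Ldhb.

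Metformin in diseased tissue was compared in the disease-metformin and disease libraries, both apart from the libraries just described. In gland-like cells 1 of 9 measured genes was called, where 10.1% of 10803 genes were. That gene was Ldhb, 3.74-fold higher with metformin (log2 ratio 1.90, 1.47 to 2.36). The median of the 9 was 0.03, against −0.03 for all genes. In the Wfdc12 cluster Ldhb was the 1 called of 9 (2.11, 1.59 to 2.67), where 9.49% of all genes were called. In the Ptprn2 cluster 0 of 9 were called, where 15.5% of all genes were, and Ldhb had a ratio of 0.57 (−0.41 to 1.60). Hk2 (0.25), Pkm (0.26) and Ldha (−0.33) differed by less than 1.5-fold in gland-like cells.

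**Figure D5:**
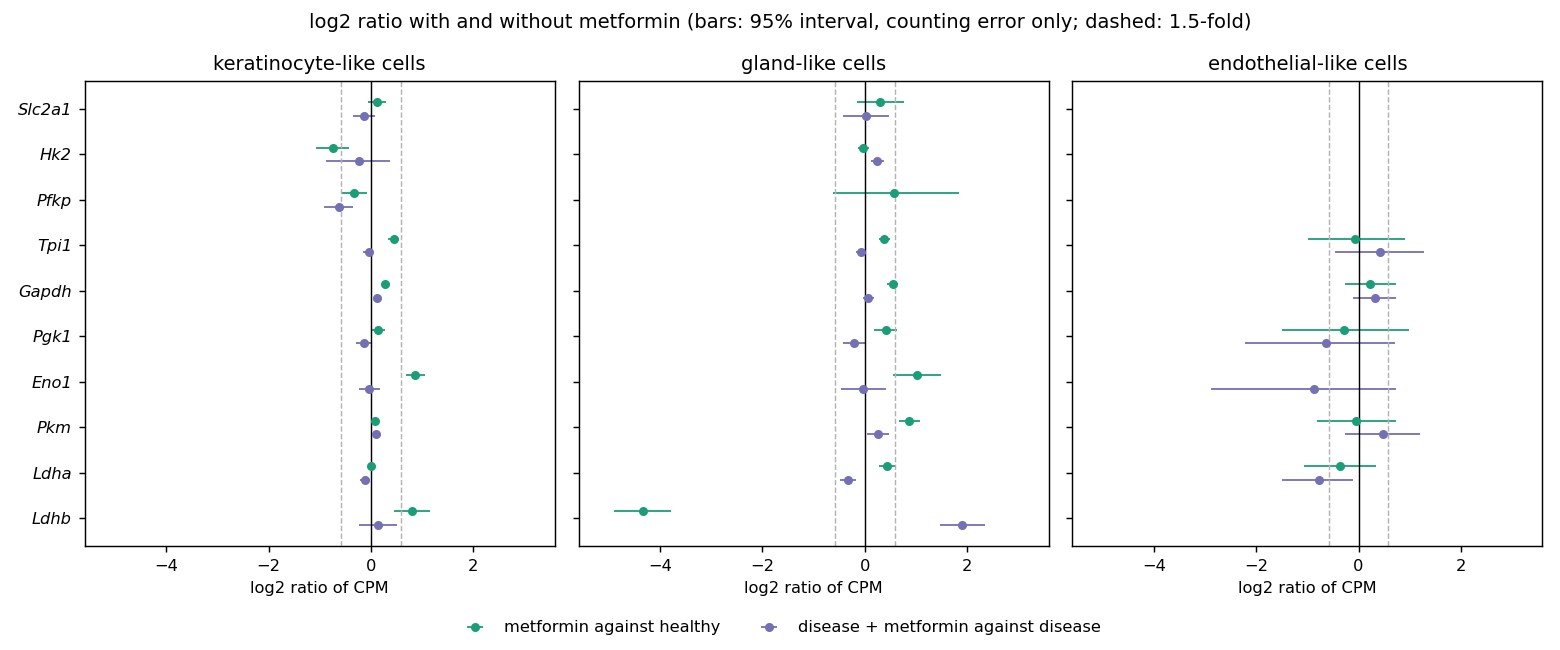
Log2 ratio of each gene with its 95% counting interval, metformin against healthy and disease-metformin against disease, in keratinocyte-like, gland-like and endothelial-like cells. Ldhb in gland-like cells lies at −4.33 without disease and at 1.90 with it, while most other ratios lie within 1 of 0. Genes under 20 UMIs over both libraries have no point.

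In keratinocyte-like cells 1 of 10 genes was called, where 11.3% of 11553 were: Pfkp was lower with metformin (−0.62, −0.92 to −0.34), from 57.7 and 37.5 CPM. That call held in 8 of 15 alternative treatments. The median of the 10 was −0.07, against −0.14 for all genes. In the keratinized suprabasal-like layer 2 of 7 measured genes were called, where 9.67% of all genes were. Slc2a1 was higher with metformin (1.15, 0.23 to 2.15), called in 7 of 8 alternatives, and Eno1 lower (−0.60, −1.19 to −0.02), called in 7 of 10. In basal-like keratinocytes 0 of 8 were called, where 6.07% of all genes were. In the Trp63 cluster, with 43 cells in the disease-metformin library, 0 of 10 were called, where 8.2% of all genes were. In endothelial-like cells, with 32 cells in the disease-metformin library, 1 of 6 was called, where 12% of all genes were. Ldha was lower there (−0.78, −1.51 to −0.12), a call that held in 8 of 12 alternatives.

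Disease without metformin was compared in the disease and healthy libraries, the latter being also the reference above. In gland-like cells 2 of 9 measured genes were called, where 12.1% of 10406 were. Ldhb was 7.69-fold lower in disease (log2 ratio −2.94, −3.39 to −2.52), and Eno1 higher (0.70, 0.17 to 1.23), the latter in 10 of 14 alternatives. The median of the 9 was 0.32, against 0.14 for all genes. In keratinocyte-like cells 1 of 10 was called, where 8.38% of 11734 were. Hk2 was 2.80-fold lower in disease (−1.48, −1.92 to −1.06), from 30.4 and 10.9 CPM, and it was called in 15 of 15 alternatives, with ratios from −1.68 to −0.72. The 142 and 71 UMIs lay mostly in the Trp63 cluster (109 and 44 UMIs), where the ratio was −1.75 (−2.29 to −1.24). Eno1 was called higher in disease in that cluster (0.72), in 11 of 11 alternatives, where 8.3% of all genes were called. Markers of salivary gland in keratinocyte-like cells summed to 2327, 1796, 933 and 3813 CPM in the 4 libraries. In the Trp63 cluster they summed to 1460, 1390, 365 and 3058 CPM. Between the healthy and disease libraries this list was thus lower in disease together with Hk2, whereas in the disease-metformin library it was highest and Hk2 lowest (9.23 CPM in keratinocyte-like cells). Its part in the Hk2 ratio was not tested. In endothelial-like cells 1 of 6 was called, where 20.1% of all genes were: Ldha was higher in disease (0.73, 0.14 to 1.36), a ratio that turned to −0.02 when cells were assigned by their own markers.

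Disease under metformin was compared in the disease-metformin and metformin libraries. In gland-like cells 2 of 10 genes were called, where 10.7% of 11348 were. Ldhb was 9.79-fold higher in disease (log2 ratio 3.29, 2.75 to 3.88), while Pfkp was lower (−1.79, −3.41 to −0.40) on 6 and 18 UMIs. In keratinocyte-like cells 1 of 10 was called, where 9.18% of 11906 were, and it was again Hk2 (−0.98, −1.55 to −0.44). That call ended with every cell weighted equally, at −0.27. In the Trp63 cluster, with 43 cells in the disease-metformin library, the Hk2 ratio of −1.05 turned to 0.69 with equal cell weights. In S-phase-like keratinocytes 1 of 8 measured genes was called, where 6.1% of all genes were: Slc2a1 was lower in disease (−1.97, −3.90 to −0.52) on 4 and 49 UMIs. Eno1 was lower in disease in basal-like keratinocytes (−0.94), called in 9 of 10 alternatives, where 6.03% of all genes were called. It was also lower in the keratinized suprabasal-like layer (−0.86), called in 9 of 11 alternatives, where 7.71% of all genes were called. In endothelial-like cells 1 of 5 was called, where 11% of all genes were. Gapdh was higher in disease there (0.62, 0.16 to 1.08), called in 6 of 12 alternatives.

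The other genes of the pathway were read from lists of related function. Between the metformin and healthy libraries, 20 of 29 other glycolysis genes were measured in keratinocyte-like cells, of which 2 were called higher and 1 lower, where 20.7% of all genes were called. In gland-like cells 14 were measured, 1 called higher and none lower, where 15.3% of all genes were called. Of 14 genes for the entry of pyruvate into mitochondria, 13 were measured in keratinocyte-like cells and 2 called lower, against the same 20.7%. They included Pcx, the pyruvate carboxylase, at 5.40 CPM with metformin and 11.6 CPM in the healthy library (log2 ratio −1.10). The AMP-activated kinase, whose activity metformin is known to raise, has 2 alternative catalytic subunits. Only their RNA was read here, and kinase activity was not measured. Prkaa1 was lower with metformin in keratinocyte-like cells (−0.82), and Prkaa2 in gland-like cells (25.7 CPM healthy, 14.3 CPM metformin, −0.84). Gluconeogenic Fbp1 (2.47 and 6.82 CPM, 1.47) and Fbp2 (65.8 and 99.8 CPM, 0.60) were higher with metformin in gland-like cells, as was Pgd of the pentose phosphate route (13.6 and 25.9 CPM, 0.93).

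Between the disease-metformin and disease libraries, 20 of 21 genes of the hypoxia factor and its targets were measured in keratinocyte-like cells, with 5 called lower and none higher, where 11.3% of all genes were called in either direction. The list's median was −0.22, against −0.14 for all genes. Among them P4ha1, a collagen prolyl hydroxylase, stood at 52.8 CPM in disease and 28.2 CPM with metformin (−0.90), and Epas1, which encodes HIF-2α, at 7.50 and 2.44 CPM (−1.62). Of the P4ha1 UMIs, 312 of 345 in disease and 79 of 104 with metformin lay in the Trp63 cluster. That cluster held 43 cells in the disease-metformin library. Bpgm, the bisphosphoglycerate mutase, stood at 44.7 and 23.4 CPM (−0.94), and Emb, a partner of lactate transporters, at 80.8 and 45.9 CPM (−0.82). In gland-like cells Epas1 was higher with metformin (7.23 and 22.9 CPM, 1.66), as was Pdk2, a kinase that restrains pyruvate dehydrogenase (11.5 and 19.7 CPM, 0.77). Both were lower in disease than in the healthy library in these cells, with log2 ratios of −1.09 for Epas1 and −0.81 for Pdk2. The disease library enters each of those ratios.

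Across 73 profiles of a cluster in a library, drawn from 23 clusters, the genes most like Ldha in log2(CPM + 10) among 8591 were Pkm (Pearson r 0.92), Txn1 (0.88), Gapdh (0.88), Eif5a (0.88) and Pgk1 (0.87). The genes most like Ldhb were Pdgfa (0.67), Ccl27a (0.64), Tusc3 (0.60), Dmd (0.60) and Cd59a (0.59). For Slc2a1 they were Oxct1 (0.78), Nop58 (0.72), Dnajc2 (0.70), Cct8 (0.69) and Ap2m1 (0.69). Ldhb had an r of −0.15 with Ldha, and Hk2 one of −0.47 with Gapdh. Profiles of 1 library share its preparation and depth, so these values describe likeness and carry no test.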

How the data were processed

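RNA of single gingival cells was measured by 10x Genomics in 4 libraries, 1 per condition, with 12507787 to 22333858 UMIs each. Per the submitters' processing notes, bcl2fastq and Cell Ranger 7.0.1 were used, with the build mm10. The deposited matrices hold UMI counts per gene and barcode, whole numbers not normalized, per the file headers and values. UMIs of the 38 symbols shared by several gene identifiers were summed. Barcodes entered with 200 genes or more and a mitochondrial share of 20% or less, no doublet caller was run, and scanpy 1.11.5 clustered them with the Leiden method (2000 variable genes, 30 components, 15 neighbours, resolution 1, seed 0), leaving out the 10 genes and the pathway lists. Clusters were named from marker lists by a scoring rule chosen after the data were seen, so class names are rebuilt. Counts were summed per class and library and given per 1000000 UMIs (CPM). Ratios were computed between 2 libraries with a conditional exact binomial 95% interval, and levels with an exact Poisson interval. Intervals cover counting error only. A gene was measured with at least 20 UMIs over both libraries and called at 1.5-fold or more with an interval that excludes 1. Classes with 20 to 49 cells in a library are given as few cells. The ratio code was tested on simulated data. Genes, lists and members were chosen with earlier results of these data known. Named were all 10 genes, up to 4 pathway genes per class and comparison (called, at least 50 UMIs, no barcode with over 20% of them, interval bound farthest from 0), and the 5 genes most like Ldha, Ldhb and Slc2a1. Alternatives varied scaling, cell weights, minimum counts, cell filters, class assignment, cluster resolution, cluster makeup, single barcodes and the fold. Those without shared barcodes, without the Odam cluster and with at least 5000 UMIs per barcode were chosen after seeing the data. Counts of the alternatives in which a call held leave out the 2-fold setting. Ratios of the pathway lists were not put through the alternatives.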

Additional observations from a re-analysis of the deposited data

Results flagged for a closer look

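Ldhb in gland-like cells stood out because its direction with metformin was opposite in tissue without and with disease. The log2 ratio was −4.33 between the metformin and healthy libraries and 1.90 between the disease-metformin and disease libraries, a difference of 6.23. In the Wfdc12 gland cluster alone the ratios were −5.10 and 2.11, a difference of 7.21. Eno1 in keratinized suprabasal-like keratinocytes had ratios of 0.75 and −0.60, a difference of −1.35, on 32 to 247 UMIs per library. With 1 library in each condition none of these differences was tested.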

How the results depend on the processing

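No paired analysis was possible because each condition has 1 library. In the 3 classes, 1277 of the gene ratios over the alternatives stayed within counting error of the main ratio, and 103 moved beyond it. Another 3, all called, turned direction. With every cell weighted equally these were Hk2 in keratinocyte-like cells (metformin against healthy, 0.41) and Eno1 in gland-like cells (metformin against healthy, −0.18). With cells assigned by their own markers it was Ldha in endothelial-like cells (disease against healthy, −0.015). Called ratios in clusters, which these counts leave out, also turned under an alternative. For disease-metformin against metformin they were Hk2 in the Trp63 cluster (0.69) and Gapdh (0.05) and Ldha (0.08) in the Ptprn2 cluster. For metformin against healthy it was Eno1 in the Ptprn2 cluster (−0.11). The 2-fold setting is left out of the counts that follow. The 13 called ratios of Ldhb in the classes and clusters followed were called under every other alternative that gave a value. In all, 21 of 49 called ratios were. Ldhb for metformin against healthy, at 0.80 in keratinocyte-like cells and 0.86 in the Trp63 cluster, lay under 2-fold.

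The number of the 10 genes called moved as follows. In keratinocyte-like cells it was 1 with equal cell weights and 0 at 2-fold for metformin against healthy, and 0 for disease-metformin against disease with size factors, with a total without gland products, mitochondrial and ribosomal genes, with 500 genes or more and a mitochondrial share of 10% or less, with Malat1 and a mitochondrial UMI required, with own markers, at the reference makeup and at 2-fold. It was 2 for disease against healthy with Malat1 and a mitochondrial UMI required or with at least 5000 UMIs, and 0 for disease-metformin against metformin with equal weights or at 2-fold. In gland-like cells it was 7 with own markers for metformin against healthy, and 2 at resolution 2 for disease-metformin against disease. For disease against healthy it was 1 with size factors, with the reduced total or at 2-fold, 4 with own markers and 6 at resolution 2. For disease-metformin against metformin it was 1 with at least 100 UMIs, at resolution 2, at the reference makeup or without each gene's top barcode. In endothelial-like cells it was 1 with equal weights or own markers for metformin against healthy. For disease-metformin against disease it was 0 with size factors, own markers, resolution 0.5, resolution 2 or 2-fold, and 2 with equal weights. For disease against healthy it was 2 with the reduced total, at least 1 UMI, Malat1 and a mitochondrial UMI required or resolution 0.5, and 0 with own markers or at 2-fold. For disease-metformin against metformin it was 2 with equal weights, and 0 with the stricter cell filter, resolution 0.5, resolution 2, the reference makeup, no top barcode or 2-fold.

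The median of the 10 log2 ratios moved to 0.35 with size factors in keratinocyte-like cells (metformin against healthy). In gland-like cells it moved to 0.65 with own markers (metformin against healthy), and at resolution 2 to −0.35 (disease-metformin against disease) and 0.78 (disease against healthy). The Ldhb share in gland-like cells of the metformin library moved to 5.69% with own markers and 5.20% at resolution 2. Other causes of these shifts were not tested. Endothelial-like cells, with 32 to 109 per library, limit what depth can show.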
